A study of Solanum lycopersicum with 36 samples.

Results

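In tomato leaves, 78 of the 20090 genes tested (of 32246 listed) were lower at each of 5 times of salt stress than before it, in grafted seedlings (GSs) and in nongrafted seedlings (NGSs) alike. These 78 genes, called members from here on, were chosen by their measured values. Levels were FPKM (fragments per kilobase of transcript and per unit of sequencing depth), and genes that reached an FPKM of 1 in 3 or more libraries were tested. A gene became a member when its mean of log2(FPKM + 1) was lower than at 0 h by at least 1, that is a log2 change of -1 or below, at each of the 5 salt times (6 to 96 h) in both types of seedling, so on all 10 changes. Since the changes from 0 h chose the members, those changes of the members are given as a description, with no test. The tests are kept for the difference between the GSs and NGSs and the difference between salt times, which the rule did not set directly. They use the same libraries as the rule, so they are not independent of it. As many as 95 other genes passed the same rule in the opposite direction.

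The leaves came from the salt-sensitive variety Zhongza 9, per the study. Its NGSs grew on their own roots, and its GSs had been split-grafted onto the salt-tolerant rootstock QZ-006. Both were grown in Hoagland solution, and 175 mM NaCl was added for 6, 12, 24, 48 or 96 h, with 3 libraries per group and 36 in all. The untreated libraries of each type were from 0 h only, so salt cannot be told apart from the age of the plants. The study gives a single morning hour of sampling, and whether that hour held for the short treatments too is not given in the sources used here. No NGS plant was grafted onto its own roots, so the act of grafting and the rootstock cannot be told apart either. In leaf RNA, fewer cells of a type and less RNA of a gene per cell cannot be told apart.

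The members with a product name or symbol included genes of roles that a leaf uses while it grows and feeds itself, and genes of defence. Core histones package newly copied DNA, and most of them are made while a cell copies its genome. Expansins, endoglucanases and pectate lyases loosen or cut the wall of a growing cell, while cutin and the lipids moved by lipid-transfer proteins coat its surface. Auxin, cytokinin and abscisic acid are hormones that set growth and water loss, and salt is known to slow leaf growth through them. By the product names of the study and the gene symbols, 9 members belonged to chromatin and replication, 11 to wall and cuticle, 9 to hormone and signalling, 14 to metabolism and transport, 4 to defence and membrane, and 4 were plastid tRNA genes. The remaining 27 had no product name in the sources used here. These role groups were drawn after the members were known, and their sizes were not compared with those among all genes.

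The libraries held 15229640 to 26661418 reads on genes, recovered from the steps of the FPKM values. The NGSs at 0 h were the shallowest group, with 15229640 to 18403172 reads, against 20795796 to 25070006 in the GSs at 0 h. The leaf label was checked with rbcS1, which encodes the small subunit of Rubisco and had an FPKM of at least 714 in each library, whereas the fruit genes E8, PG2 and 2A11 stayed at or below 0.0507. Within the GSs at 0 h, 1 library stood apart in the members: their median was 0.53 (log2) above the group mean in replicate 1, and only 7 of 78 members lay below that mean there, against 66 in replicate 2. Without GS replicate 1 at 0 h the rule gave 58 genes, of which 49 were members, and without replicate 2 it gave 113, of which 75 were members. The list therefore moved with single 0 h libraries, and so did several counts given further on.

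The mean FPKM of the members over the 6 libraries at 0 h had a median of 32.9 (range 5.76 to 2646), against 7.87 over all genes tested. A gene near 0 before the salt could not meet the rule, so the rule itself keeps out low genes. The top 10 by this measure were LOC104649409 and LOC101253176, which have no entry in the reference table, LOC101248636, which has no product name, LOC543929 (an acyl carrier protein, which holds the growing fatty acid chain), LOC101257400 (non-specific lipid-transfer protein 1), GLO2 (glycolate oxidase, a photorespiration enzyme), LOC101250583 (auxin-binding protein ABP19a), the plastid gene trnG-GCC, EXP2 (an expansin) and IAA4 (an Aux/IAA repressor of auxin responses). Of the 78, 68 were protein coding and 3 were long noncoding in the reference annotation, 4 were tRNA genes and 3 had no entry.

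Over the members, the median log2 change from 0 h was -2.41, -1.78, -1.94, -1.79 and -1.89 in the GSs at the 5 salt times in turn, and -2.69, -3.12, -3.04, -2.62 and -2.11 in the NGSs. All genes tested had medians between -0.04 and 0.02 at these times. The low point came at different times in the 2 types of seedling. In the GSs, 32, 16, 12, 11 and 7 members had their lowest mean at the 5 times in turn, whereas in the NGSs the same numbers were 13, 27, 29, 5 and 4. Each of the 15 salt libraries was below each 0 h library for 44 members in the GSs and for 59 in the NGSs, and for 37 members in both, against 1.72% and 9.08% of all genes tested in the GSs and NGSs. These shares repeat what the rule asked for.

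In the tests that follow, a gene was called with the thresholds of the study, a log2 difference of at least 1 in size and an adjusted p under 0.05, here from limma on log2(FPKM + 1) with Benjamini-Hochberg adjustment over all genes. The members nearest the threshold were LOC101251812 at -1.0007 in the NGSs at 96 h, LOC101266234 at -1.0009 in the GSs at 48 h and GLO2 at -1.0027 in the GSs at 96 h. Just outside lay the plastid gene trnA-UGC and the SAUR50-type genes LOC101252930 and LOC101251725, each with a mildest change of -0.99.

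**Figure D1:**
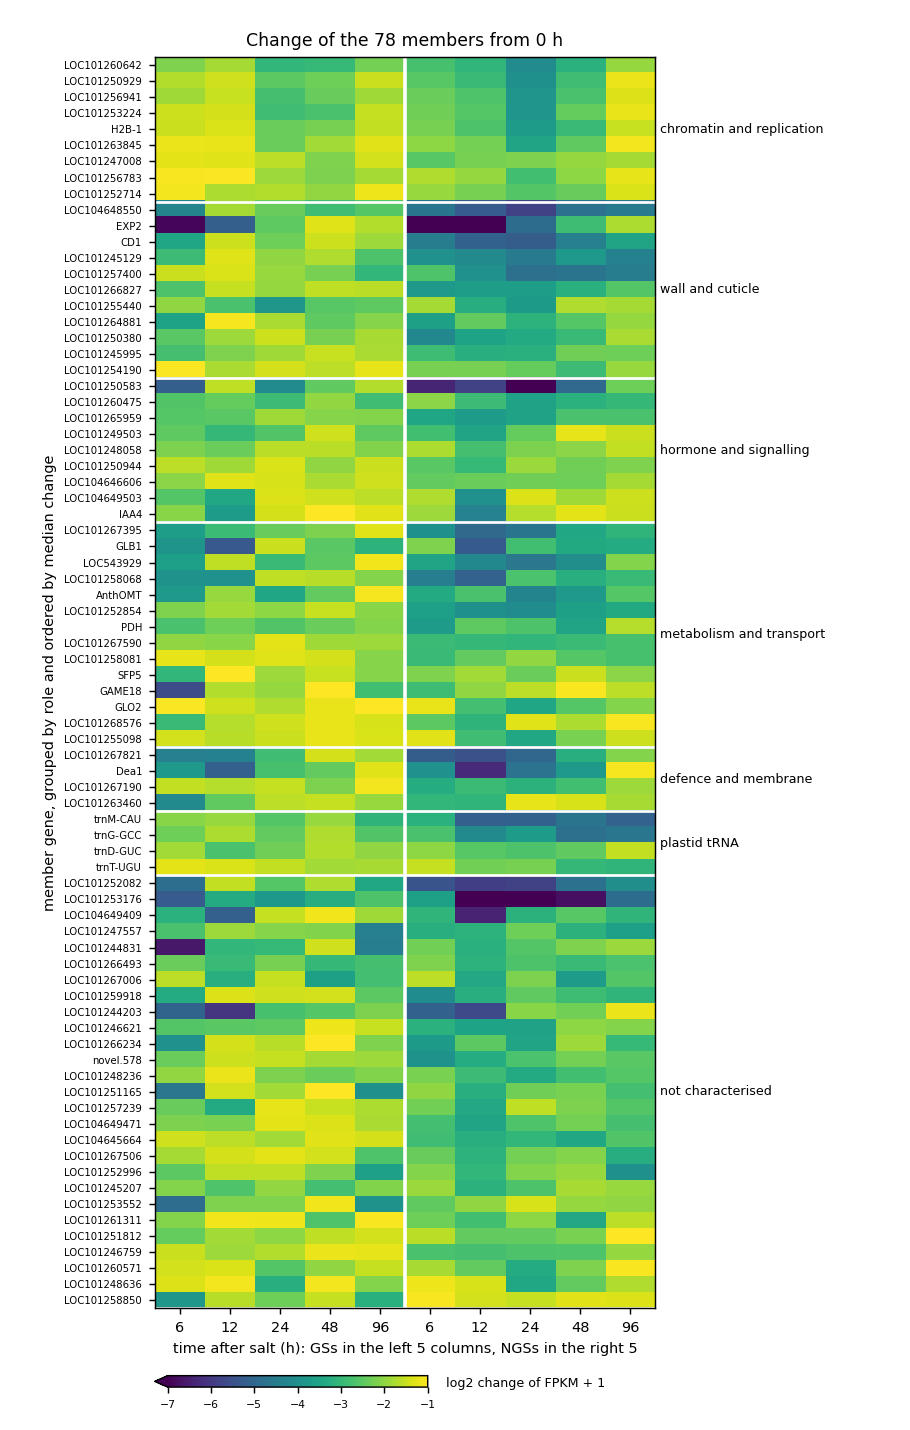
Log2 change of FPKM + 1 from 0 h for the 78 members (rows, grouped by role) at 6 to 96 h (columns) in the GSs and NGSs, from means of 3 libraries; yellow is a change of -1 and dark blue -7 or below. In the GSs 32 of the 78 members are lowest at 6 h, and in the NGSs 56 are lowest at 12 or 24 h.

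Most of the 9 chromatin and replication members had their lowest mean at 24 h. The group held 3 histone H3.2 genes (LOC101253224, LOC101250929 and LOC101263845), 2 histone H4 genes (LOC101256941 and LOC101260642), H2B-1 (histone H2B), LOC101256783 (a histone H2A variant), LOC101252714 (the 14 kDa subunit B of replication protein A, which binds single-stranded DNA) and LOC101247008 (high mobility group B protein 7, which bends DNA). For LOC101256941, FPKM in the 3 GS libraries was 142, 69.9 and 97.7 before salt, 20.3, 53.95 and 17.2 after 6 h, 28.1, 38.9 and 37.2 after 12 h, 14.4, 12.1 and 14.5 after 24 h, 16.4, 29.4 and 11.9 after 48 h, and 22.6, 15.5 and 52.8 after 96 h. In the NGSs it was 149.7, 85.4 and 157 before salt, 37.3, 28.4 and 12.4 after 6 h, 7.63, 36.2 and 25.1 after 12 h, 11.8, 4.94 and 7.60 after 24 h, 11.5, 17.4 and 30.3 after 48 h, and 30.1, 79.3 and 52.8 after 96 h. In both types each library at 24 h was therefore below each library at 0 h, and 24 h held the lowest mean.

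H2B-1 followed the same course, with log2 changes of -1.47, -1.34, -2.37, -2.22 and -1.55 in the GSs from 6 to 96 h and -2.24, -2.67, -3.71, -2.93 and -1.51 in the NGSs. Its FPKM at 0 h was 166, 65.6 and 153 in the NGSs, which ran from 13.9, 5.29 and 7.04 at 24 h to 29.8, 57.4 and 40.02 at 96 h. The 24 h and 96 h libraries did not overlap. By mean level, 8 of the 9 genes were lowest at 24 h in the NGSs, and the exception LOC101247008 was lowest at 6 h. In the GSs, 6 were lowest at 24 h and 3 at 48 h.

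From 24 to 96 h, 8 of the 9 genes rose in the NGSs, where 8.78% of all genes were called higher. The median log2 difference of the 9 was 2.20, and the largest was that of the H3.2 gene LOC101250929, at 2.81 ± 0.62 (SE), adjusted p = 0.00116 (limma). LOC101247008 was not called, at 0.39 ± 0.38 (SE), adjusted p = 0.46. In the GSs none of the 9 was called over the same interval by limma (1 at an unadjusted p under 0.05), while all 9 differences were above 0 (median 0.82), and the difference between the types in this step was not tested. From 6 to 24 h, 5 of the 9 fell in the NGSs (LOC101260642, LOC101256941, H2B-1, LOC101263845 and LOC101253224, at -1.37 to -1.56), where 8.25% of all genes were called lower, and none was called by limma in the GSs (median -0.86, with 2 at an unadjusted p under 0.05). These 5 calls were narrow, since each was kept in only 1 or 2 of the 6 fits that left out 1 library, whereas the rise to 96 h of H2B-1 and of each H3.2 and H4 gene was kept in all 6. Between the types, limma called none of the 9 at any time, and only at 48 h did 1 have an unadjusted p under 0.05.

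**Figure D2:**
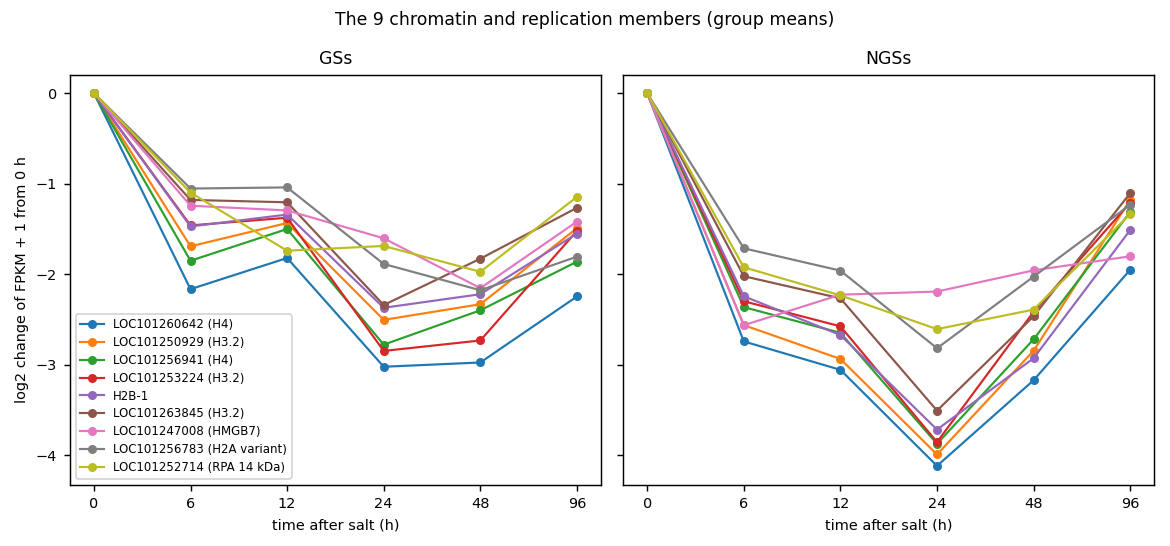
Log2 change of FPKM + 1 from 0 h of the 9 chromatin and replication members (lines, group means of 3 libraries) at 6 to 96 h in the GSs (left) and NGSs (right). In the NGSs 8 of the 9 lines have their lowest point at 24 h, at -3.50 to -4.11 for the H3.2 and H4 genes, and end between -1.10 and -1.95 at 96 h.

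Other genes of cell division, taken by symbol from the reference table, are set beside them. Of 17 that were not members, 2 were called lower at 24 h in the GSs, where 5.06% of all genes were called lower, and 10 in the NGSs, where 16.4% were. None was called higher, against 2.19% and 9.80% of all genes. The 17 had a median log2 change of -0.42 in the GSs against -1.20 in the NGSs. PCNA, the clamp that holds DNA polymerase, had a change of -0.94 in the GSs against -1.42 in the NGSs, and CDKB2, a mitotic kinase, had -0.66 and -1.89, with only the NGS changes called. H2B-3 was at -0.60 and -0.52, so not each H2B gene behaved as H2B-1 did. How much of these differences follows from the share of dividing cells in the leaf was not tested. Histone genes have near-identical copies that can share reads, so the level of a single copy is uncertain.

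The 11 wall and cuticle members included EXP2, LOC101245995 (endoglucanase 24-like), LOC101264881 (probable pectate lyase 13, which cuts pectin), LOC101266827 (protein PMR5), LOC101250380 (protein EXORDIUM-like 3), CD1 (the cutin synthase CUTIN DEFICIENT 1), the GDSL-type esterases LOC101245129 and LOC101254190, the lipid-transfer proteins LOC101257400 and LOC104648550 (DIR1-type), and LOC101255440 (a BURP domain protein). Their median change in the NGSs was -3.75, -3.66 and -3.73 at 6, 12 and 24 h. In the GSs it was -2.76, -1.76 and -1.94 at the same times.

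EXP2 had the deepest early change of the whole list in the GSs. FPKM in the GS libraries was 364, 165 and 231 before salt, 1.12, 0.907 and 1.10 after 6 h, 6.16, 3.80 and 7.51 after 12 h, 69.4, 60.6 and 17.2 after 24 h, 259.5, 145 and 23.8 after 48 h, and 86.8, 106 and 44.5 after 96 h. NGS values were 360.2, 432 and 436 before salt, 4.29, 0.755 and 1.05 after 6 h, 1.23, 1.15 and 1.77 after 12 h, 23.2, 5.25 and 16.8 after 24 h, 75.4, 29.2 and 76.4 after 48 h, and 123, 156 and 93.9 after 96 h. The salt and 0 h libraries of the NGSs did not overlap, while in the GSs 1 library at 48 h lay inside the range at 0 h. EXP2 rose from 6 to 24 h in both types, by 4.39 ± 0.62 (SE), adjusted p = 3.39e-06 in the GSs and by 2.38 ± 0.62 (SE), adjusted p = 0.00442 in the NGSs (limma). From 24 to 96 h it rose in the NGSs by 3.14 ± 0.62 (SE), adjusted p = 0.000464, and its difference in the GSs was 0.81 ± 0.62 (SE), adjusted p = 0.382. At 96 h it was still -1.68 and -1.74 from 0 h in the GSs and NGSs.

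LOC101257400, the most abundant member of this group, had no rise called under salt. Its FPKM was 606, 232 and 519 before salt, 125, 180.5 and 145 after 6 h, 120.3, 161 and 231 after 12 h, 126, 92.7 and 111 after 24 h, 103, 119 and 56.7 after 48 h, and 27.4, 43.9 and 107 after 96 h in the GSs. In the NGSs it was 795, 1216 and 1286 before salt, 357, 105 and 134 after 6 h, 73.7, 62.4 and 66.9 after 12 h, 55.6, 36.6 and 27.05 after 24 h, 40.7, 28.97 and 56.3 after 48 h, and 17.2, 156 and 40.6 after 96 h. Its lowest means came at 96 h in the GSs and at 24 h in the NGSs, and it fell from 6 to 24 h in the NGSs, by -2.14 ± 0.55 (SE), adjusted p = 0.00401 (limma). From 24 to 96 h the differences were -1.09 in the GSs against 0.33 in the NGSs, and neither was called. CD1, which builds cutin, had changes of -4.47, -5.14, -5.24, -4.39 and -3.51 at 6 to 96 h in the NGSs and -3.46, -1.46, -2.32, -1.46 and -1.88 in the GSs. 1 GS library at 0 h was low for it, since the 3 values were 41.6, 27.3 and 4.54, against 44.5, 61.3 and 79.3 in the NGSs. LOC104648550 had the next to lowest median of 10 changes among all members, -4.40, behind LOC101250583 at -4.52 and just ahead of LOC101252082 at -4.38.

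Cell wall genes that were not members were counted by symbol as well. Of 35, 5 were called lower at 24 h in the GSs against 18 in the NGSs, and none was called higher, against the shares of all genes given for cell division. Their median change at 24 h was -0.41 in the GSs against -1.5 in the NGSs. Calls on this list were counted at 24 h only, and by 96 h its genes had moved both ways. Changes there, GSs first, were 5.64 and 3.82 for XTH3, 3.74 and 0.90 for XTH9, and 2.59 and 1.66 for XTH1. Below 0 h were TBG3 at -2.54 and -1.59, PL at -1.68 and -1.95, and Cel1 at -1.76 and -2.13. The fall at 24 h was thus not shared by wall genes at each time.

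As many as 9 members acted in hormone responses and signalling. IAA4 had FPKM values of 245, 157 and 401 before salt, 63.6, 37.99 and 81.8 after 6 h, 18.9, 12.3 and 25.9 after 12 h, 181, 53.1 and 85.9 after 24 h, 133, 87.99 and 155 after 48 h, and 92.6, 134 and 88.3 after 96 h in the GSs. In the NGSs they were 251, 379 and 403 before salt, 103, 49.4 and 149 after 6 h, 17.1, 18.4 and 12.5 after 12 h, 140.4, 90.6 and 93.9 after 24 h, 185, 153 and 98.2 after 48 h, and 123, 137 and 105 after 96 h. The low point at 12 h, -3.70 and -4.33, was shared by both types and was deeper than at any other time. LOC104649503, a B-box zinc finger protein, had the same 12 h low point, at -3.39 in the GSs against -3.98 in the NGSs, as did the SAUR50-like gene LOC101249503, at -3.01 and -3.49, and LOC101248058, a response regulator (ORR9) of the cytokinin pathway, at -2.37 and -2.76. Untreated plants at 12 h were not analysed here.

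LOC101250583, the auxin-binding protein ABP19a (a germin-like protein), had the lowest median change of all 78. In the GSs its FPKM was 469, 276 and 178 before salt, 7.78, 7.62 and 5.57 after 6 h, 73.2, 65.3 and 181 after 12 h, 35.2, 33.3 and 2.77 after 24 h, 62.6, 44.5 and 46.6 after 48 h, and 76.2, 68.9 and 129 after 96 h. Among NGS libraries it was 783, 479 and 675 before salt, 14.7, 7.95 and 2.16 after 6 h, 5.30, 10.9 and 17.1 after 12 h, 3.88, 2.22 and 3.57 after 24 h, 90.5, 11.95 and 6.29 after 48 h, and 71.7, 191 and 142 after 96 h. The GS level at 12 h, with 65.3 as its lowest library, lay above each NGS library at that time, of which the highest was 17.1. The gene was not called between the types at 12 h by limma (lowest adjusted p of the 9 hormone and signalling members, 0.105). From 24 to 96 h it rose in both types, by 2.41 ± 0.75 (SE), adjusted p = 0.0241 in the GSs and 4.92 ± 0.75 (SE), adjusted p = 3.43e-05 in the NGSs (limma). The GS call was lost in 2 of the 6 fits that left out 1 library.

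Both sides of the abscisic acid switch were on the list. LOC101250944, the receptor PYL4, had changes of -1.59, -1.86, -1.35, -1.995 and -1.48 at 6 to 96 h for the GSs and -2.54, -2.98, -1.91, -2.30 and -2.16 for the NGSs. LOC101265959, a protein phosphatase 2C of the kind that such receptors can block, had -2.58, -2.54, -1.85, -2.08 and -2.12 and -3.46, -3.68, -3.55, -2.72 and -2.71. LOC104646606, a kinase like HT1, which in Arabidopsis acts in the stomatal response to CO2, had its mildest change at -1.28 and its deepest at -2.44. The F-box protein LOC101260475 fell further from 6 to 24 h in the NGSs, by -1.49 ± 0.39 (SE), adjusted p = 0.00459 (limma). Of 55 other auxin genes found by symbol, 3 were called lower and 2 higher at 24 h in the GSs, and 11 lower and 3 higher in the NGSs. Over all genes tested, GS calls were 5.06% lower and 2.19% higher, and NGS calls were 16.4% lower and 9.80% higher. Of 6 genes of dehydration and abscisic acid synthesis found the same way, 4 were called higher in the GSs against 3 in the NGSs and none lower, with median changes of 3.55 and 2.10.

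Among the 14 metabolism and transport members, LOC543929 had the highest mean FPKM at 0 h. The FPKM of this acyl carrier protein was 1581, 968 and 687 before salt, 39.1, 123 and 117 after 6 h, 313, 282 and 452 after 12 h, 207, 141 and 80.6 after 24 h, 278, 157 and 129 after 48 h, and 326, 514 and 584 after 96 h in the GSs. NGS libraries had 2989, 1876 and 2658 before salt, 280.2, 195 and 190.2 after 6 h, 102, 135 and 173 after 12 h, 109.7, 89.6 and 97.8 after 24 h, 248, 124 and 109 after 48 h, and 416, 814 and 530.1 after 96 h. The salt and 0 h libraries did not overlap in either type. It had an early low point in the GSs, at 6 h, and a later one in the NGSs, at 24 h, and from 24 to 96 h it rose by 1.78 ± 0.41 (SE), adjusted p = 0.00363 in the GSs and by 2.50 ± 0.41 (SE), adjusted p = 7.55e-05 in the NGSs (limma).

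GLO2 had FPKM values of 384, 193 and 392 before salt, 137, 156 and 154 after 6 h, 85.8, 121 and 140.2 after 12 h, 148, 115 and 46.7 after 24 h, 139, 150.4 and 114 after 48 h, and 111, 162 and 200.2 after 96 h in the GSs. In the NGSs they were 487, 771 and 858 before salt, 446, 307 and 194 after 6 h, 73.6, 99.8 and 128 after 12 h, 60.8, 54.1 and 67.2 after 24 h, 178, 87.6 and 93.02 after 48 h, and 112, 229 and 149.6 after 96 h. GLO2 fell from 6 to 24 h in the NGSs, by -2.29 ± 0.37 (SE), adjusted p = 2.92e-05, and rose from 24 to 96 h, by 1.36 ± 0.37 (SE), adjusted p = 0.00702 (limma). In the GSs the matching differences were -0.68 and 0.72, and neither was called.

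PDH encodes proline dehydrogenase, which breaks down proline, a solute that plants store under salt. Its FPKM was 16.1, 16.6 and 11.8 before salt, 1.54, 2.19 and 0.648 after 6 h, 4.53, 1.00 and 1.76 after 12 h, 0.634, 1.06 and 3.89 after 24 h, 1.00, 1.01 and 5.96 after 48 h, and 5.24, 2.19 and 1.40 after 96 h in the GSs. In the NGSs it was 17.9, 20.5 and 18.3 before salt, 0.685, 0.507 and 0.421 after 6 h, 1.82, 1.07 and 6.71 after 12 h, 3.01, 0.994 and 2.81 after 24 h, 0.792, 0.556 and 0.930 after 48 h, and 6.18, 3.92 and 5.88 after 96 h. No salt library of either type reached the lowest 0 h library of that type. Malate synthase (LOC101267395), an enzyme of the glyoxylate cycle, had changes of -3.67, -2.92, -2.41, -2.17 and -1.30 for the GSs and -3.99, -4.92, -4.68, -3.42 and -3.07 for the NGSs, and it rose from 24 to 96 h in the NGSs, by 1.61 ± 0.50 (SE), adjusted p = 0.0163 (limma), a call kept in 3 of the 6 fits without 1 library.

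The water channel LOC101255098, which the study names aquaporin PIP2-4 although another gene holds that symbol in the reference table, kept an FPKM of 13.02, 22.8 and 9.45 at 24 h in the GSs, where it had been 60.05, 35.97 and 32.9 at 0 h. In the NGSs it went from 51.99, 57.95 and 53.5 at 0 h to 4.87, 1.80 and 7.60 at 24 h and 13.3, 26.9 and 19.4 at 96 h. It fell from 6 to 24 h in the NGSs, by -2.13 ± 0.47 (SE), adjusted p = 0.000895, and rose from 24 to 96 h, by 1.95 ± 0.47 (SE), adjusted p = 0.00242 (limma). Of 12 other genes whose symbol starts with the letters of a water channel, 5 were called lower at 24 h in the GSs against 9 in the NGSs, with median changes of -1.08 and -2.18. Of all genes, 5.06% and 16.4% were called lower. The 1 called higher, pip1 in the NGSs at 4.71, was matched by its letters alone, and whether it encodes a water channel was not checked.

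The other named metabolic members differed in timing. SFP5, a sugar-porter family protein, was lowest at 6 h in the GSs (-3.04) and at 24 h in the NGSs (-2.34). AnthOMT, an anthocyanin O-methyltransferase, was at -3.46 and -4.30 at 24 h. GLB1 reached -5.32 and -5.30 at 12 h. GAME18, a glycosyltransferase of steroidal glycoalkaloid synthesis, was at -5.59 at 6 h in the GSs, from FPKM values of 229, 44.4 and 70.1 at 0 h to 1.35, 0.352 and 1.09, and rose from 6 to 24 h by 3.65 ± 0.86 (SE), adjusted p = 0.00164 (limma). The esterase LOC101258068 rose over the same interval in both types, by 2.38 in the GSs (adjusted p = 1.11e-05) and by 1.73 in the NGSs (adjusted p = 0.000637).

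There were 4 members with names from defence or the membrane. Dea1, a gene known in tomato for its response to arachidonic acid, had FPKM values of 208, 90.4 and 74.2 before salt, 5.59, 9.71 and 7.36 after 6 h, 1.17, 2.65 and 2.96 after 12 h, 22.7, 13.7 and 12.6 after 24 h, 21.7, 17.2 and 20.2 after 48 h, and 52.02, 61.8 and 28.7 after 96 h in the GSs. In the NGSs they were 149, 149 and 172 before salt, 17.3, 6.17 and 6.78 after 6 h, 0.332, 1.09 and 2.05 after 12 h, 8.65, 2.95 and 4.52 after 24 h, 24.4, 4.71 and 10.1 after 48 h, and 58.5, 113 and 58.3 after 96 h. Its low point lay at 12 h in both types, and it rose from 24 to 96 h, by 1.46 ± 0.47 (SE), adjusted p = 0.0276 in the GSs and by 3.63 ± 0.47 (SE), adjusted p = 5.13e-06 in the NGSs (limma), the NGS value being the smallest adjusted p of any member in that comparison. The GS call was kept in 2 of the 6 fits without 1 library. LOC101267821, a PR-1-like protein, also rose in the NGSs over that interval, by 2.92 ± 0.53 (SE), adjusted p = 0.000203, as did the snakin-2-like peptide LOC101267190, by 1.26 ± 0.25 (SE), adjusted p = 0.000427. LOC101263460, the membrane protein PM19L, rose early instead, from 6 to 24 h, by 2.52 ± 0.33 (SE), adjusted p = 1.18e-06 in the GSs and 1.81 ± 0.33 (SE), adjusted p = 0.000131 in the NGSs.

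The 4 plastid tRNA members were trnG-GCC, trnM-CAU, trnT-UGU and trnD-GUC, which carry glycine, methionine, threonine and aspartate in the chloroplast. For trnG-GCC, FPKM was 189, 116 and 243 before salt, 25.4, 48.8 and 31.5 after 6 h, 66.8, 33.98 and 60.6 after 12 h, 91.9, 25.9 and 12.7 after 24 h, 49.5, 35.1 and 82.2 after 48 h, and 13.1, 37.6 and 41.8 after 96 h in the GSs. NGS libraries held 677, 706 and 517 before salt, 123, 92.8 and 71.96 after 6 h, 26.5, 31.4 and 47.6 after 12 h, 68.1, 53.8 and 27.8 after 24 h, 51.7, 7.85 and 23.9 after 48 h, and 11.2, 31.3 and 38.5 after 96 h. The salt libraries did not overlap with those at 0 h in either type. All 4 rested on few reads. For trnG-GCC there were 6 to 402 reads per library, and at most 106 in a salt library. The other 3 had fewer: trnM-CAU had 0 to 136, trnT-UGU 0 to 22 and trnD-GUC 0 to 20. Their changes, such as -1.54 for trnT-UGU and -2.30 for trnD-GUC at 24 h in the GSs, carry a wide counting error. Of the 34 plastid tRNA genes tested, these 4 included, 8 were called lower at 24 h in the GSs against 24 in the NGSs, and none higher, beside 5.06% and 16.4% of all genes called lower. Of the 77 plastid protein-coding genes tested, GS calls at 24 h were 5 lower and none higher, and NGS calls were 48 lower and 1 higher. Plastid genes as a whole took 0.0755% to 0.0976% of the reads of the GSs and 0.205% to 0.216% of those of the NGSs at 0 h, and at 24 h 0.0447% to 0.0866% and 0.0480% to 0.0780%. Their part in the values of the tRNA members was not tested.

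Among the 27 members without a product name, LOC101253176 had the deepest changes on the list, -8.05 and -8.83 in the NGSs at 12 and 24 h. Its FPKM in the NGSs was 1182, 479 and 916 before salt, 263, 44.8 and 23.8 after 6 h, 1.55, 0.519 and 6.16 after 12 h, 1.68, 0.288 and 0.611 after 24 h, 116, 1.52 and 0.429 after 48 h, and 6.89, 168 and 14.5 after 96 h. In the GSs it was 175, 295 and 48.2 before salt, 0.624, 12.7 and 0.957 after 6 h, 12.2, 13.6 and 12.6 after 12 h, 34.2, 17.9 and 0.433 after 24 h, 61.5, 8.17 and 3.96 after 48 h, and 5.08, 15.04 and 97.9 after 96 h. The libraries of a group were far apart, as at 48 h, and the fall from 6 to 24 h in the NGSs was -5.24 ± 1.42 (SE), adjusted p = 0.0059 (limma). LOC104649409, the most abundant member, had FPKM values of 1248, 765 and 2775 at 0 h and 37.3, 50.4 and 29.2 at 12 h in the GSs, against 3177, 3731 and 4183 and 117, 22.7 and 28.2 in the NGSs. LOC101248636 was lowest at 24 h in both types, at -3.21 and -3.40, and its fall from 6 to 24 h was called in both.

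Within these 27, 4 genes that had GS replicate 1 as their highest library at 0 h are given as examples. Others of the 27, such as LOC101247557 and LOC101244203, were highest in that library too, and it stood high for most members. LOC101244831 had 819, 129 and 171 FPKM in the GSs at 0 h, against 123, 30.04 and 54.8 in the NGSs, so all 3 GS libraries were above the NGS libraries, and 1.97, 1.05 and 2.13 against 18.3, 7.03 and 11.4 at 6 h. LOC101253552, LOC101251165 and LOC101258850 had GS replicate 1 at 210.4, 119.5 and 104 FPKM. Between the types, limma called none of the 4 at 0 or 6 h, with adjusted p-values of 0.128 to 0.654, and LOC101258850 at 0 h alone had an unadjusted p under 0.05. By gene order in the reference assembly SLM_r2.1, LOC101251165 and LOC101250583 had 1 gene between them, and LOC101266493 and LOC101267006 were next to each other. Both genes of the second pair were near 0 at 48 h, with FPKM values of 0, 0 and 0 and 0.0517, 0 and 0.212 in the GSs.

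**Figure D3:**
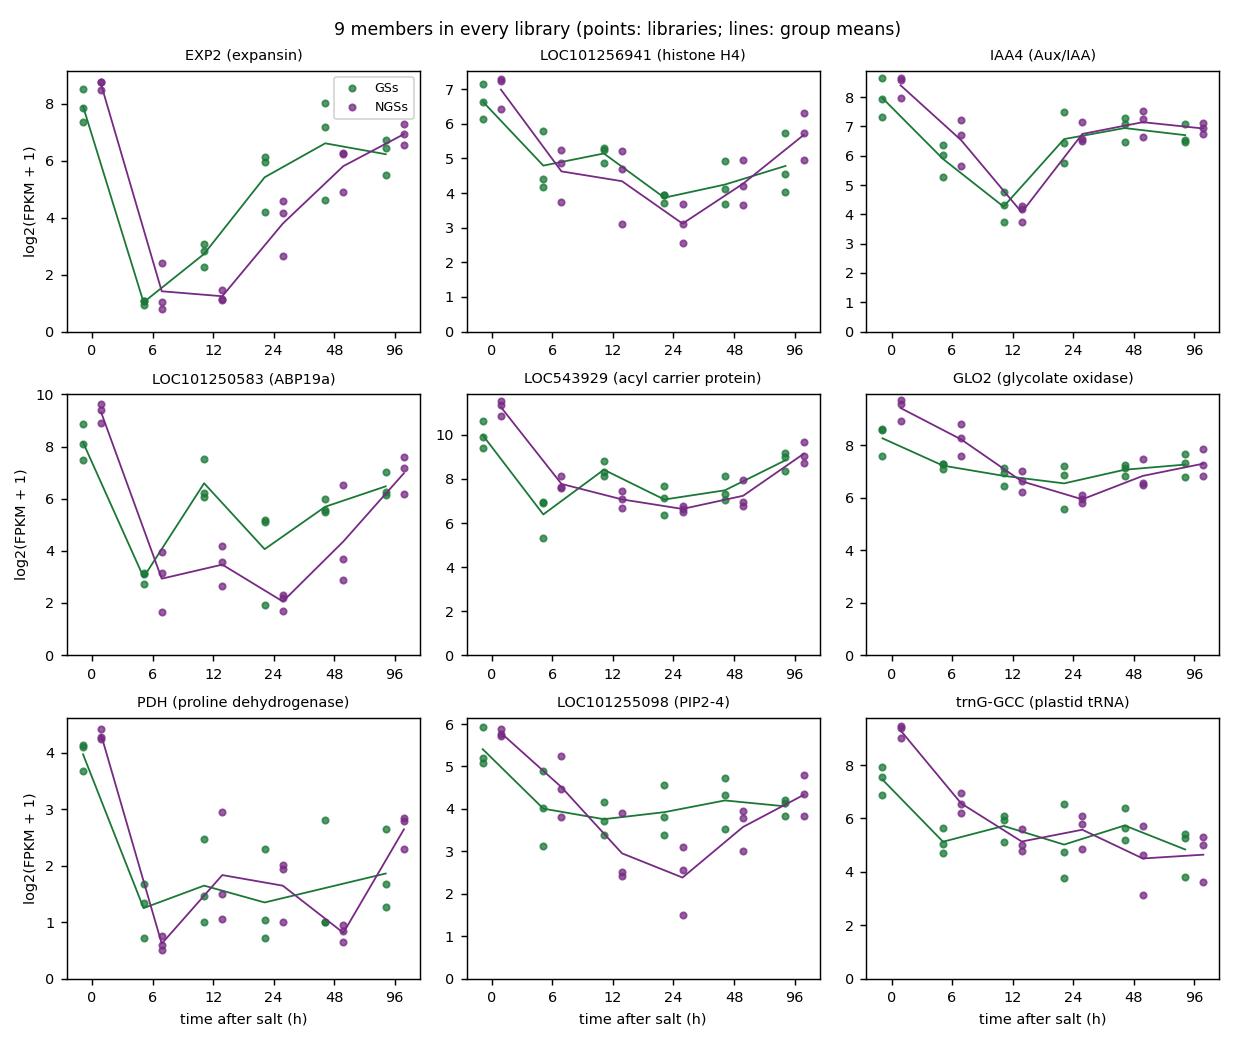
Level of 9 members in each library, as log2(FPKM + 1) against the time after salt in hours, with GSs in green and NGSs in purple, points for single libraries and lines through the group means. EXP2 and IAA4 are lowest at 6 or 12 h, LOC101256941 at 24 h in both types, and trnG-GCC shows the widest gap between the types at 0 h.

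The first tested question was whether the members stood at the same level in GSs and NGSs. Before the salt, 11 of the 78 were lower in the GSs and none was higher. Of all genes, 715 (3.56%) were called lower and 303 higher, so calls leaned lower there too. A difference below 0 was found for 65 of the 78 and one above 0 for 13 (16.7%), against 48.2% of all genes above 0. The 0 h values were also the baseline of the rule. The clearest was LOC101252854, thioredoxin H4-1, a small redox protein, with FPKM values of 6.46, 3.93 and 5.70 for the GSs and 14.8, 21.8 and 24.03 for the NGSs, so without overlap, and a log2 difference of -1.73 ± 0.33 (SE), adjusted p = 0.00121 (limma). LOC104645664, without a product name, had 4.32, 6.95 and 1.53 against 17.3, 9.21 and 14.5, at -1.58 ± 0.42 (SE), adjusted p = 0.0125. The esterase LOC101254190 had 3.49, 4.94 and 7.75 against 7.86, 14.9 and 14.3, at -1.07 ± 0.30 (SE), adjusted p = 0.0191.

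The plastid gene trnM-CAU showed the largest called difference at 0 h, -2.61, from FPKM values of 21.8, 8.46 and 28.2 for the GSs and 98.96, 123 and 115 for the NGSs, and trnG-GCC was called too, at -1.84, beside the higher plastid share of the NGS libraries given above. The other called members were LOC543929, GLO2, LOC101258068, LOC101245129, LOC101250380 and LOC101266827, at -1.09 to -1.43. The count rested on single libraries: it was 2 and 5 without GS replicate 2 and 3 at 0 h, and 5 and 1 without NGS replicate 2 and 3. LOC101252854 was called in all 6 of these fits, whereas trnM-CAU and trnG-GCC were called in 0 of 6 (adjusted p up to 0.149 and 0.145 by limma), LOC104645664 in 4 and each other member in at most 3. With only the 0 h libraries in the fit, 3 members were called.

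Under salt, few members differed between the types. At 6 h, LOC543929 was the 1 member called lower in the GSs, at -1.39 ± 0.41 (SE), adjusted p = 0.0365 (limma), where 2.41% of all genes were called lower, and none was called higher. Replicate numbers were taken to pair the libraries at 6 h from correlations in these same data, and the labels do not say what a shared number means. If that pairing holds, with the replicate as a block 3 members were called lower: LOC543929, LOC101253176 at -4.25 and trnG-GCC at -1.44. Without 1 library the count was 0 (GS replicate 1, NGS replicate 1 or NGS replicate 3), 2 (GS replicate 3) or 3 (NGS replicate 2). At 12 h the pectate lyase LOC101264881 was higher in the GSs, with FPKM values of 5.70, 3.92 and 6.65 against 0.931, 3.46 and 1.21 and a difference of 1.24 ± 0.24 (SE), adjusted p = 0.0342, where 0.0398% of all genes were called higher. That call was lost without GS replicate 4, GS replicate 6 or NGS replicate 4 at 12 h.

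At 24, 48 and 96 h no member was called by limma, where 0.0249%, 0.0498% and 0.00996% of all genes were called in either direction. At an unadjusted p under 0.05 the counts were 14, 6 and 2 members, against 2421, 2297 and 907 of all genes. Leaving out NGS replicate 8 at 24 h gave 1 call there. The median difference of the members, GSs minus NGSs, was -0.56, -0.31, 0.62, 0.54, 0.22 and -0.30 at 0, 6, 12, 24, 48 and 96 h, while that of all genes stayed between -0.02 and 0.01.

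The second question was whether the change from 0 h differed between the types. Here the difference of the 2 changes was tested. The rule held each change at -1 or below and named no sign for the difference, but the sign is not free of the rule. At 12 h, 17.6% of all genes were at -1 or below in the NGSs against 10.2% in the GSs, and at 24 h 17.1% against 6.59%. A rule that asks for both falls can thus favour a shallower change in the GSs, and its part was not tested. The shares of all genes given below are of genes not chosen this way. The 0 h libraries enter this test and the comparison at 0 h alike, so the results are not independent of each other. All 30 calls, of 17 members, were of a shallower change in the GSs, that is a difference above 0. Of all genes, 487, 982, 645 and 809 were called above 0 at 6, 12, 24 and 48 h, against 500, 311, 281 and 374 below 0. Calls thus leaned above 0 over all genes as well from 12 to 48 h. At 6 h, 2 members were called, where 2.42% of all genes were called above 0. At 12 h there were 12 (4.89% of all genes), at 24 h 10 (3.21%), at 48 h 6 (4.03%) and at 96 h none by limma, where 0.254% of all genes were called in either direction and 8 members and 2812 of all genes had an unadjusted p under 0.05. The difference was above 0 for 51, 73, 68, 66 and 46 of the 78 at the 5 times, against 50.9%, 51.6%, 50.6%, 50.9% and 53.0% of all genes.

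Of the 30 calls, 12 were of 5 wall and cuticle members, a group that held 11 of the 78. Calls of the same gene at several times share the 0 h libraries. Whether this group held more calls than its size would give was not tested. The GDSL esterase LOC101245129 had FPKM values of 23.5, 10.1 and 9.10 at 0 h and 2.90, 3.58 and 9.32 at 12 h for the GSs and 19.1, 57.7 and 44.2 and 1.19, 0.598 and 1.65 for the NGSs. Its changes differed by 2.86 ± 0.61 (SE), adjusted p = 0.00672 (limma) at 12 h. The lipid-transfer protein LOC101257400 differed by 2.64 ± 0.78 (SE), adjusted p = 0.0344 at 12 h and by 2.85 ± 0.78 (SE), adjusted p = 0.0278 at 24 h. These calls of LOC101257400 were kept in 4 and 6 of the 12 fits without 1 library, and that of LOC101245129 in all 12. The pectate lyase LOC101264881 differed by 1.37 ± 0.34 (SE), adjusted p = 0.0148 at 12 h, kept in 11 of 12. Unlike the other 2, it started from like levels, 13.3, 10.4 and 13.5 for the GSs and 12.6, 13.3 and 14.98 for the NGSs, and its difference at 0 h was -0.13 (adjusted p = 0.776).

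Outside that group, thioredoxin H4-1 (LOC101252854) was called at 12, 24 and 48 h, at 2.16, 2.05 and 2.10, with adjusted p-values of 0.00672, 0.0103 and 0.00843 (limma), and each call was kept in all 12 fits without 1 library and lost with a pseudocount of 0.1 (adjusted p = 0.054, 0.123 and 0.107). At 12 h its FPKM was 0.605, 0.701 and 1.05 for the GSs and 0.147, 0.148 and 0.746 for the NGSs, so the types lay close together under salt and apart at 0 h. The snakin-2-like LOC101267190 was called at 6, 12 and 24 h, first by 1.74 ± 0.35 (SE), adjusted p = 0.00455 (lost with only the libraries compared), from 9.99, 9.69 and 7.50 for the GSs and 4.52, 4.11 and 3.97 for the NGSs at 6 h. LOC101250583 and LOC101252082 had the largest called differences, 4.27 ± 1.06 (SE) and 4.34 ± 0.95 (SE) at 12 h, and the acyl carrier protein LOC543929 had 2.62 ± 0.58 (SE).

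These counts moved with single libraries. At 12 h the count was 20 without GS replicate 1 at 0 h, 7 without GS replicate 2 or 3 at 0 h or NGS replicate 4 at 12 h, 6 without NGS replicate 3 at 0 h, and 4 without GS replicate 6 at 12 h. At 24 h it was 18 without GS replicate 1 at 0 h, 4 without GS replicate 2 at 0 h, and 5 or 6 without GS replicate 7 or NGS replicates 8 or 9 at 24 h or NGS replicates 2 or 3 at 0 h. At 48 h it was 10 without GS replicate 1 at 0 h and 1 to 3 without GS replicate 2 or 3 or NGS replicate 2 or 3 at 0 h, GS replicate 10 or 11 or NGS replicate 11 at 48 h. At 6 h it was 5 without NGS replicate 1 at 0 h or at 6 h, and 1 without any GS library at 0 h, GS replicate 1 or 2 at 6 h, or NGS replicate 3 at 0 h or 6 h.

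**Figure D4:**
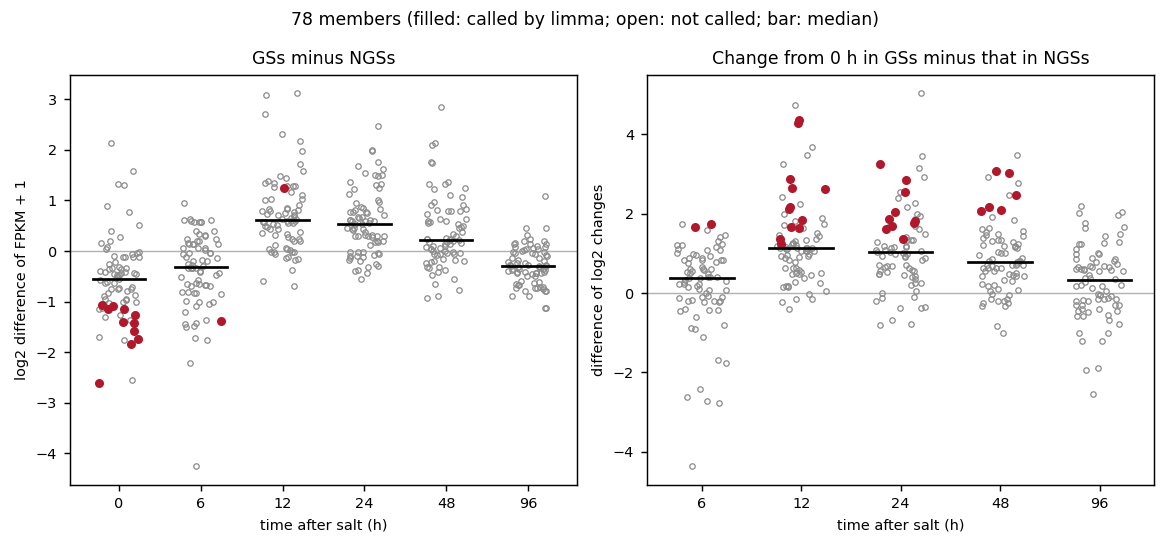
Left, log2 difference of FPKM + 1, GSs minus NGSs, for the 78 members at 0 to 96 h after salt; right, the change from 0 h in the GSs minus that in the NGSs at 6 to 96 h. Points are members, filled where limma called them, and bars are medians; at 0 h all 11 filled points lie below 0, and on the right all 30 lie above 0.

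The third question was how the members moved between salt times, which the rule did not fix beyond its threshold. From 6 to 24 h in the GSs, 18 members rose and 2 fell, where 8.61% of all genes were called higher and 7.65% lower. In the NGSs over the same interval 6 rose and 14 fell, where 7.01% and 8.25% of all genes were called. From 24 to 96 h the GSs had 4 members that rose and 2 that fell, where 6.23% and 1.69% of all genes were called higher and lower, and the NGSs had 26 that rose and 1 that fell, where 8.78% and 3.51% were. The rise of the 26 NGS members from 24 to 96 h was held by genes of each role but the plastid tRNAs: 8 of chromatin and replication, 4 of wall and cuticle, 1 of hormone and signalling, 4 of metabolism and transport, 3 of defence and membrane and 6 without a product name. It was 17 without NGS replicate 14 at 96 h. The other counts were 13 without GS replicate 7 at 24 h (GSs, 6 to 24 h), 12 without NGS replicate 9 and 13 without NGS replicate 8 at 24 h or NGS replicate 2 at 6 h (NGSs, 6 to 24 h), and 3 without GS replicate 9 at 24 h or GS replicate 14 at 96 h (GSs, 24 to 96 h), in both directions together. The split of higher and lower calls moved with the scale: on a TPM scale 8 rose and 11 fell in the NGSs from 6 to 24 h, and on that scale, with total reads as the scale or with a pseudocount of 0.1, 2 rose and 3 fell in the GSs from 24 to 96 h.

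The members that rose from 6 to 24 h in the GSs held none of the chromatin and replication genes. They included EXP2, LOC101264881, LOC101250380, GAME18, GLB1, LOC101258068, LOC101268576 (epoxide hydrolase A-like), LOC101263460, LOC101267821, LOC104649503 and 8 genes without a product name, while LOC101248636 and LOC101255440 fell. There were 5 members called higher from 6 to 24 h in both types, where 4.14% of all genes were: EXP2, LOC101258068, LOC101263460, LOC101244203 and LOC101259918. LOC101252996, without a product name, fell from 24 to 96 h in both, by -2.03 ± 0.46 (SE), adjusted p = 0.00321 in the GSs and -1.87 ± 0.46 (SE), adjusted p = 0.00308 in the NGSs (limma), from FPKM values of 19.99, 4.57 and 5.53 to 0.924, 1.05 and 1.86 in the GSs. It was the only member called lower over that interval in both types.

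**Figure D5:**
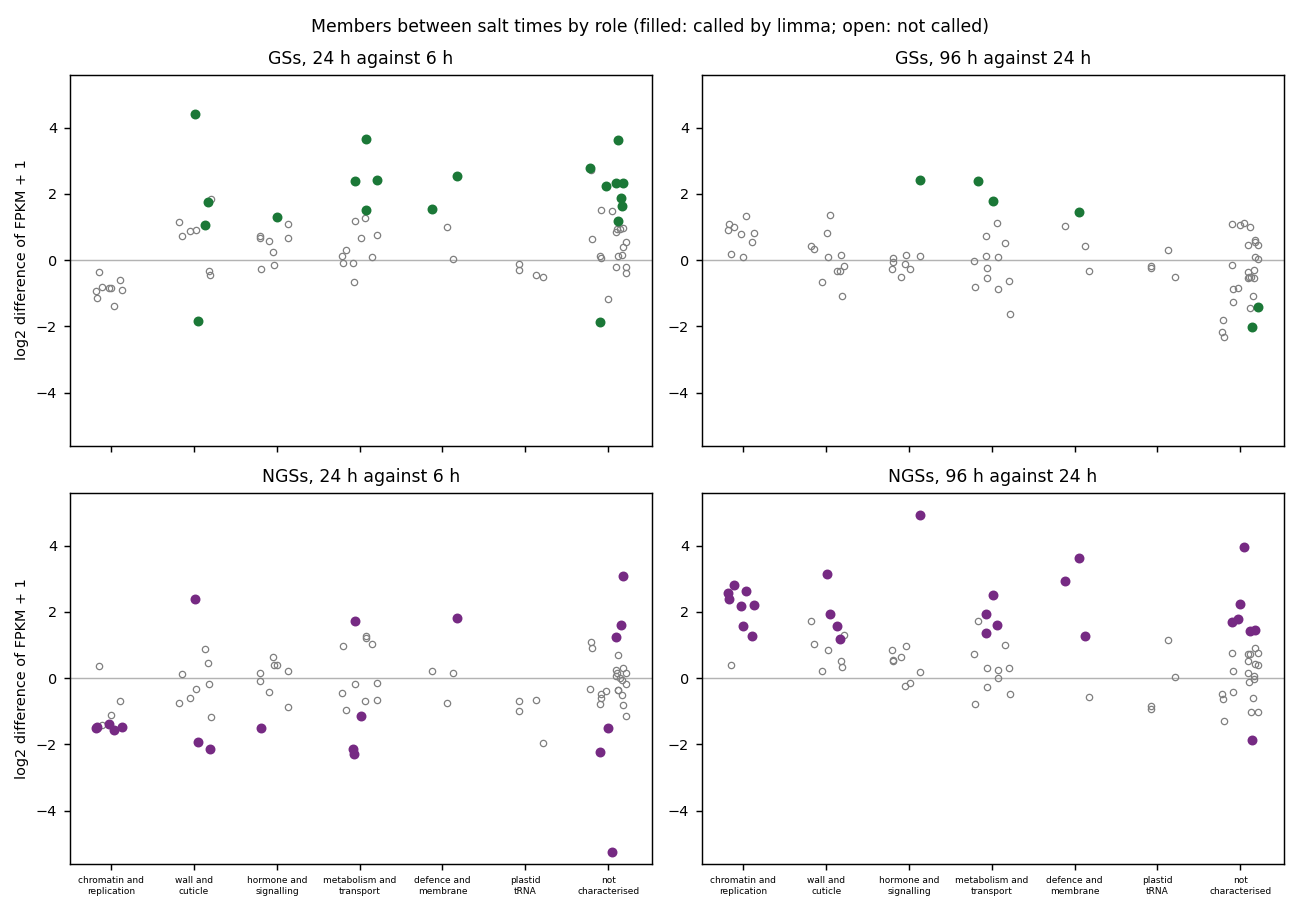
Log2 difference of FPKM + 1 of the 78 members, by role, between 24 and 6 h (left) and between 96 and 24 h (right) in the GSs (top) and NGSs (bottom); filled points were called by limma. The upper right panel holds 6 filled points and the lower right 27, of which 8 are the chromatin and replication genes at 1.27 to 2.81.

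Light-harvesting genes, counted together with the Rubisco small-subunit genes RBCS4 and rbcS1, give a last comparison, since none of them was a member. Of 16 found by symbol, 15 were called lower at 24 h in each type, with median changes of -1.85 in the GSs against -2.68 in the NGSs. Of all genes, 5.06% were called lower in the GSs and 16.4% in the NGSs. CAB6A, an antenna protein gene, shows a time at which it missed the rule: it had a mean FPKM of 353 at 0 h and 692 at 6 h for the GSs and 347 and 2185 for the NGSs. At 24 h its means were 52.0 and 37.0.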

How the data were processed

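RNA-seq of leaves gave 36 libraries, 3 for each of 6 times in the GSs and NGSs, grouped by their titles. The deposited FPKM values were made by the authors, per the paper, by aligning reads with HISAT to tomato SL 2.0. The submitters' processing notes name HISAT2 2.0.5, featureCounts 1.5.0-p3, DESeq2 1.16.1 and STAR-Fusion 1.2.0. The strand setting is not given in the sources used here. No column was left out (0 of 36 unused).

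Values were analysed as log2(FPKM + 1) for genes that reached an FPKM of 1 in 3 or more libraries. limma 3.58.1 in R 4.3.3 (eBayes with a trend) was fitted to all 20090 genes and 12 group means, with 24 residual degrees of freedom, and p-values were adjusted by Benjamini-Hochberg over all genes within each contrast. Calls needed a log2 difference of at least 1 in size and an adjusted p under 0.05. Since the values are FPKM, no count test was run, although their steps gave whole reads (within 0.02 reads) for 100.0% of genes. The recovered reads served for depth (median 22755230 reads on genes) and for 1 alternative scale, since the library scale inside the FPKM values did not follow total reads (their ratio was 0.761 to 1.28 of that of the median library). The same fit was also run on simulated data, and that outcome is not given here.

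Members were found by the rule in the opening, and 1 gene left out of it is not reported here. The members and the lists were chosen with earlier results of these data known. Named are the 10 most abundant members at 0 h, up to 10 with the smallest adjusted p between types, those with a gene symbol, those nearest the threshold and the 3 with the lowest median change. The other members named were chosen after their values were seen. Symbols and gene order come from RefSeq assembly SLM_r2.1 (75 members matched), product names from the study. Stray symbols with a list's prefix were dropped by name. Grouping by protein similarity and a search of promoters were planned and not run, since they need sequences not used here. The 3 libraries of a group are biological replicates per the paper. Replicate numbers were taken to pair the types only at 6 h, where the correlations of same-numbered deviations were 0.12, 0.41 and 0.43; at each other time at least 1 of 3 was under 0.1.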

Additional observations from a re-analysis of the deposited data

Results flagged for a closer look

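The change from 0 h differed between GSs and NGSs, by the limma test of the difference itself, in 30 cases of 17 members, each shallower in the GSs. Of all genes, 2.42%, 4.89%, 3.21% and 4.03% were called in that direction at 6, 12, 24 and 48 h. The rule can favour a shallower change in the GSs, and its part was not tested. Cases at different times share the 0 h libraries and are not independent. At 6 h the difference of the log2 changes was 1.74 for LOC101267190 and 1.67 for LOC101250380.

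At 12 h it was 2.86 for LOC101245129, 2.16 for LOC101252854, 4.34 for LOC101252082, 2.62 for LOC543929 and 1.37 for LOC101264881. Further cases at 12 h were LOC101250583 at 4.27, LOC101266827 at 2.12, LOC101267190 at 1.23, LOC101257400 at 2.64, LOC101250380 at 1.63, LOC101261311 at 1.67 and a gene with no entry in the reference table at 1.83.

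At 24 h the values were 1.61 for LOC101267190, 2.05 for LOC101252854, 2.55 for LOC101245129, 1.37 for LOC101264881 and 1.69 for the protein phosphatase LOC101265959. The other cases at 24 h were LOC101250380 at 1.86, LOC101267590 (a tropinone reductase homolog) at 1.82, LOC101257400 at 2.85, LOC101252082 at 3.24 and GLO2 at 1.76.

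At 48 h LOC101252854 was at 2.10, LOC104645664 at 2.17, trnG-GCC at 3.08, LOC101245129 at 2.05, LOC101252082 at 3.03 and LOC101257400 at 2.47. Of these 17 members, 8 were also called lower in the GSs at 0 h by limma, and the part of the 0 h level in their differences was not tested. The other 9 were not called at 0 h, where their differences ran from -1.36 to -0.13.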

How the results depend on the processing

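No single call reversed its direction in 1615 repeats of the 116 calls, each with 1 choice changed, but many repeats lost the call. In fits without 1 library, 49 were lost and 29 kept for GSs against NGSs, and 125 and 235 for the responses. Between salt times, 75 were lost and 165 kept from 6 to 24 h, and 43 and 155 from 24 to 96 h. The rule gave 143 genes with a pseudocount of 0.1 (all 78 among them) and 21 at a threshold of -1.5, 85 with group medians (58 shared), 54 on a TPM scale (52 shared) and 62 with total reads as the scale (61 shared). That last scale was added after seeing the data. Over fits without 1 library the rule gave 58 to 113.

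For GSs against NGSs at 0 h the count of 11 became 3 with a pseudocount of 0.1, 7 with no filter, 5 on the TPM scale, and 3 with only the libraries compared. At 6 h the count of 1 became 2 with a pseudocount of 0.1, the TPM scale, total reads or the FDR alone, 3 with the replicate block, and 0 with no filter or only the libraries compared. At 12 h the count of 1 became 0 with a pseudocount of 0.1, the TPM scale, total reads, the replicate block or only the libraries compared. At 24 h the count of 0 became 1 with a pseudocount of 0.1, the TPM scale or total reads. At 48 and 96 h it was 0 under each setting.

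For the difference of responses, the counts of 2, 12, 10 and 6 at 6 to 48 h became 1, 7, 5 and 1 with a pseudocount of 0.1. At 6 h the count was 1 with no filter or the TPM scale, and 1 with only the libraries compared, there of a deeper change in the GSs, and at 48 h it was 3 with no filter or the TPM scale. At 24 h it was 5 with only the libraries compared. At 96 h it was 0 throughout. From 6 to 24 h in the NGSs the count of 20 became 13 with only the libraries compared. The cause of these shifts was not tested.

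Without 1 library the counts ran from 1 to 11, 0 to 3, 0 to 1 and 0 to 1 for GSs against NGSs at 0, 6, 12 and 24 h, and from 1 to 5, 4 to 20, 4 to 18 and 1 to 10 for the responses at 6, 12, 24 and 48 h. Between salt times they ran from 13 to 18 and 3 to 6 in the GSs, and from 12 to 22 and 17 to 30 in the NGSs. Under the replicate block the response counts were 3, 14, 8 and 7 at 6 to 48 h, and pairing was taken to hold only at 6 h.

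The median of all genes moved by over 0.1 in 8 of 15 comparisons on the TPM scale, by -0.29 (responses at 12 h) to 0.16 (6 to 24 h in the NGSs), and in 6 with total reads. The count of members was lowest without GS replicate 1 and highest without GS replicate 2, both at 0 h. Depth limits the plastid members with few reads, since trnT-UGU and trnD-GUC had at most 22 and 20 in any library.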
